A study of Mus musculus with 51 samples.

Results

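The STAT genes encode signal transducers and activators of transcription, and the 6 described here are Stat2, Stat3, Stat4, Stat5a, Stat5b and Stat6. They were taken by gene symbol from a bulk RNA-seq table of 40077 mouse genes, and all 6 were found. STAT proteins wait in the cytoplasm until a cytokine receptor and its Janus kinase (JAK) phosphorylate them, then pair and enter the nucleus to switch on target genes. STAT2 works with IRF9 in the type I interferon response, STAT3 follows IL-6 family cytokines, STAT4 follows IL-12 in T and NK cells, STAT5A and STAT5B follow prolactin, growth hormone and IL-2, and STAT6 follows IL-4 and IL-13. SOCS, PIAS and PTPN proteins act as brakes on the pathway.

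The series asked how UBA1, the E1 enzyme that starts most ubiquitin transfer, bears on tumor immunity. Myc-CaP is a mouse prostate cancer line and B16-BL6 a mouse melanoma line. There were 35 subcutaneous tumors grown in young adult syngeneic mice and 16 libraries of cultured Myc-CaP cells. In the tumors, B16-BL6 control sgRNA (n = 3) stood against sgUba1 (n = 4), Myc-CaP control sgRNA (n = 3) against sgUba1 (n = 7), Myc-CaP empty vector (n = 3) against Uba1 overexpression (OE, n = 4), and Myc-CaP vehicle (n = 6) against TAK-243 (n = 5), a small-molecule inhibitor of UBA1. In culture, 1 experiment crossed control sgRNA or sgUba1 with IFN-γ, and the other crossed no drug or 50 nM TAK-243 with IFN-γ, with 2 libraries in each of the 8 groups. All labels give the control genotype as WT. The sgUba1 lines were sublines grown from single cells that still hold part of their UBA1, OE came from a lentiviral vector with a CMV promoter, and tumors were placed on both flanks, so that tumors of a group may share a mouse.

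Library totals ran from 8652097 to 38032395 counts, which leaves Stat4, and Stat5a in culture, as the members with few reads. Uba1, given as TMM-scaled counts relative to library size (CPM), checked the labels. It fell in B16-BL6 sgUba1 tumors (log2 fold change -0.92 ± 0.07, SE) and sgUba1 cells (-0.87 ± 0.05), and rose with OE (1.27 ± 0.09). In the Myc-CaP tumors labelled sgUba1 it went against the label in part: tumors 1 to 3 had 197, 202 and 211 CPM, tumors 4 to 7 had 373, 361, 368 and 383 CPM, and the controls had 320, 325 and 337 CPM. Those 10 libraries are therefore described by their labels, with and without tumors 4 to 7. The 6 melanocyte markers summed to between 10901 and 12685 CPM in B16-BL6 tumors and to no more than 32.5 CPM in Myc-CaP tumors. The 6 prostate epithelial markers summed to between 1288 and 3658 CPM in Myc-CaP tumors and to no more than 3.55 CPM in B16-BL6 tumors, with between 0 and 3 of them at 0 in a Myc-CaP tumor.

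Stat5b, Stat5a and Stat3 lie side by side on chromosome 11. In GENCODE M21 (GRCm38), Stat5b (ENSMUSG00000020919.11) covers chr11:100780731-100850724 on the minus strand, Stat5a (ENSMUSG00000004043.14) chr11:100859351-100885169 on the plus strand, and Stat3 (ENSMUSG00000004040.16) chr11:100885098-100939540 on the minus strand. Stat5b and Stat5a are 8626 bp apart, and the ends of Stat5a and Stat3 overlap by 72 bp on opposite strands. Stat2 (ENSMUSG00000040033.16) covers chr10:128270559-128292849 and Stat6 (ENSMUSG00000002147.18) chr10:127642986-127660957, both on the plus strand, the latter meeting Nab2 on the other strand over 40 bp. Stat4 (ENSMUSG00000062939.11) covers chr1:51987148-52107189 on the plus strand. Of the 31-base words in the Stat5a transcripts, 11.5% also occur in Stat5b transcripts, and 15.1% of those of Stat5b occur in Stat5a. Reads from these stretches were split by estimation, so values for either gene alone are uncertain, and their sum is given where it matters.

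Stat2, Stat3 and Stat6 were the members that changed most often in the cultured cells, so their promoters are shown, from 250 bases before to 50 after the RefSeq start (GRCm38.p6), 5′ to 3′ on the gene's strand. Capitals mark motifs: the interferon-stimulated response element (ISRE; GAAA, any 2 bases, GAAA), the STAT site TTCNNNGAA and its form with 1 more spacer base, each sought on both strands. The windows are chr10:128270248-128270547 (plus) for Stat2, chr11:100939491-100939790 (minus) for Stat3 and chr10:127642736-127643035 (plus) for Stat6.
Stat2: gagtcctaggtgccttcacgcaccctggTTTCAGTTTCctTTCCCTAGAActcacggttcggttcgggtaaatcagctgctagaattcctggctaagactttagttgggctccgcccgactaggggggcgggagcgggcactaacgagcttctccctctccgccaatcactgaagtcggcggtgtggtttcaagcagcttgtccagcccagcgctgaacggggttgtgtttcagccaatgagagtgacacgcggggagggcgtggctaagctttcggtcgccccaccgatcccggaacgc
Stat3: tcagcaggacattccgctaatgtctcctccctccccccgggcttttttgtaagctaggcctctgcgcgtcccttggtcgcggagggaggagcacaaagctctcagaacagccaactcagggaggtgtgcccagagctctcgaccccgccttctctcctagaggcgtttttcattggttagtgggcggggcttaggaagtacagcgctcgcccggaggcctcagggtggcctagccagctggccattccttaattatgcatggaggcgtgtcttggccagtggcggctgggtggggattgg
Stat6: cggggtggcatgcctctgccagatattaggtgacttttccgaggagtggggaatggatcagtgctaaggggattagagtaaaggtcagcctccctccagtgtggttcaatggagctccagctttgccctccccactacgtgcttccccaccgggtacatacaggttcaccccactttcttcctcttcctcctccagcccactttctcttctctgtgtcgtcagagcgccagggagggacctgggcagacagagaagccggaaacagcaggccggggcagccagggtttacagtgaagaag
The Stat2 window held an ISRE on the opposite strand (TTTCAGTTTC as printed) and, 2 bases further on, the STAT site with the longer spacer (TTCCCTAGAA). None of the 3 motifs occurred in the Stat3 or Stat6 window. Among the 9 windows listed for the 6 genes, the only other match was an ISRE (GAAAGTGAAA) in the second of 2 Stat4 windows. Of 32851 promoters of this length, 3.44% held an ISRE, 8.30% TTCNNNGAA and 6.95% the form with the longer spacer. A match describes these letters and is not a measured binding site.

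In tumors, 5 of the 6 genes were well expressed and Stat4 was scarce. Levels between genes are given as TPM, which allow for transcript length and library total. Over the 35 tumors Stat6 ran from 28.8 to 70.3 TPM (median 40.6), Stat3 from 15 to 78.6 (median 32.8), Stat5a from 7.96 to 65.3 (median 28.4), Stat5b from 13.2 to 47.5 (median 25.2) and Stat2 from 6.19 to 31.5 TPM (median 13.8). Stat4, the IL-12 factor of lymphocytes, ran from 0.0215 to 1.31 TPM on 367 counts in all. In the 16 culture libraries Stat6 ran from 22.6 to 34.0 TPM, Stat5b from 9.18 to 12.8, Stat3 from 8.86 to 20.2, Stat2 from 2.86 to 7.77 and Stat5a from 0.867 to 4.06 TPM. Stat4 had 1 count in 1 culture library and was at 0 in the other 15.

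The order of the levels differed between lines and settings. Stat6 had the highest mean TPM in all 8 culture groups and in 5 of the 6 Myc-CaP tumor groups. Stat3 led in both B16-BL6 groups, apart from Stat6 in the controls and overlapping it in sgUba1 tumors. Stat5a led over all Myc-CaP tumors labelled sgUba1, where it overlapped Stat5b. That lead came from tumors 4 to 7, with Stat5a between 57.4 and 65.3 TPM and Stat6 between 28.8 and 35.1 TPM. In tumors 1 to 3 Stat5a had 28.1, 41.0 and 28.0 TPM and Stat6 33.5, 37.3 and 40.6 TPM, which overlap. Stat4 was last in every group. Stat5a made up between 7.78% and 27.3% of the summed Stat5a and Stat5b TPM in culture and between 30.7% and 63.8% in tumors. In the vehicle, TAK-243 and Myc-CaP control tumors, Stat5a and Stat3 overlapped, as did Stat3 and Stat5b.

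**Figure D1:**
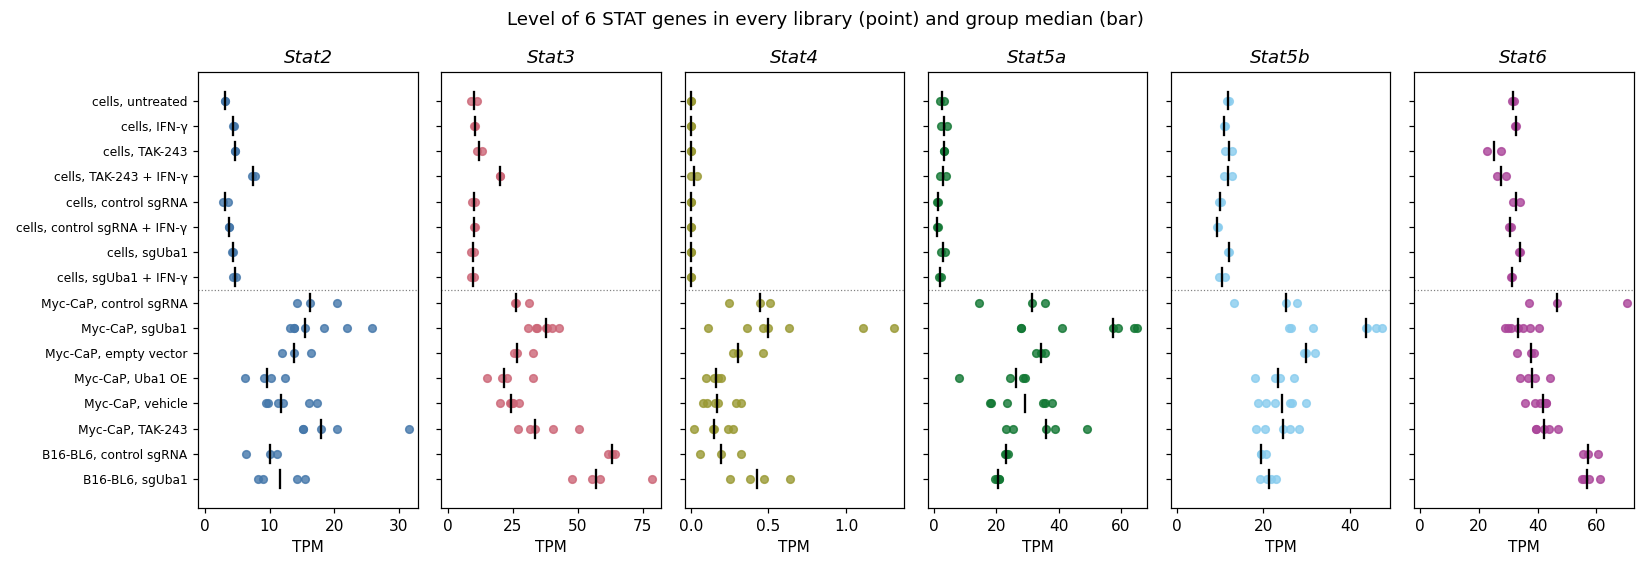
Level of each STAT gene in TPM (x axis, 1 scale per gene) in all 51 libraries, 1 row per group, with points for libraries and bars for group medians. Stat5a lies at or below 4.06 TPM in every culture library and at or above 7.96 TPM in every tumor, and Stat4 does not pass 1.31 TPM.

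Myc-CaP control tumors were compared with unstimulated control sgRNA cells to see what separates the members in tumor and dish. Stat5a, Stat2 and Stat3 were higher in the tumors, while Stat6 and Stat5b differed less. Stat5a had 57.3, 20.7 and 48.4 CPM in the tumors and 2.50 and 2.35 CPM in the cells. Even the lowest tumor was far above both cell libraries. The fold was 17.4 (log2 fold change 4.12 ± 0.51, edgeR adjusted p = 0.00222). Stat2 had 37.5, 38.5 and 53.2 CPM against 9.54 and 11.3 CPM (2.05 ± 0.22, adjusted p = 0.00156). Stat3 had 80.0, 59.5 and 62.6 CPM against 31.4 and 32.0 CPM (1.09 ± 0.17, adjusted p = 0.00392). The tumor and cell libraries did not overlap for any of these genes, a share not counted over all genes. Stat5b gave 0.81 ± 0.36 (adjusted p = 0.109) and Stat6 0.30 ± 0.23 (adjusted p = 0.314), and the summed Stat5 genes gave 1.42 ± 0.39 (adjusted p = 0.027). Without control tumor 2, which held the lowest Stat5b, Stat5b was called as well (1.10, adjusted p = 5.06e-05).

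Thus 3 of the 5 members tested were called, where 52.3% of all genes were, and the median of all genes was 0.125. Other pathway genes were higher in the tumors too: 22 of 28 receptors and kinases tested were higher and 1 lower, with a median of 1.82, and 14 of 15 STAT2 targets were higher and 1 lower, with a median of 4.49. Fos, an early-response factor, had a mean of 29.5 CPM in the tumors against 0.369 CPM in the cells (log2 fold change 6.29, adjusted p = 3.14e-04). Oas2, an antiviral 2′-5′ oligoadenylate synthetase, had 10.2 against 0.0208 CPM, Il18r1, an IL-18 receptor chain, 75.5 against 2.82 CPM, and Ccnd2, a cyclin, 12.0 against 0.805 CPM. The brakes went both ways, with 3 of 17 higher and 5 lower. Tumors also hold host cells. The 15 myeloid markers summed to between 264 and 506 CPM in these tumors and between 14.4 and 16.1 CPM in the cells, the 8 fibroblast markers to between 724 and 1261 against 17.8 and 18.1 CPM, and the 6 endothelial markers to between 130 and 147 against 1.58 and 1.87 CPM. The part of host cells in these differences cannot be told apart from a change in the cancer cells. In any bulk sample fewer cells of a type and less RNA per cell cannot be told apart. The tumors had 10668740 to 12552908 counts a library and the cells 26768564 to 30714057. Tumor or dish and set of libraries cannot be told apart either.

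Control tumors of the lines differed at Stat3 and Stat2, in opposite directions. Stat3 had 186, 192 and 176 CPM in B16-BL6 and 87.2, 67.3 and 68.0 CPM in Myc-CaP, without overlap (log2 fold change 1.32 ± 0.20, edgeR adjusted p = 2.42e-05). Stat2 had 30.8, 19.8 and 32.8 CPM in B16-BL6 and 40.8, 43.5 and 57.9 CPM in Myc-CaP, again without overlap (-0.77 ± 0.26, adjusted p = 0.017). For Stat2 the call ended without Myc-CaP control tumor 3 (adjusted p = 0.0858) or B16-BL6 control tumor 2 (0.083). Stat5a (0.00 ± 0.37), Stat5b (-0.04 ± 0.31), Stat4 (-0.90 ± 0.71) and Stat6 (0.30 ± 0.15) did not pass. Stat6 was called without Myc-CaP control tumor 2 (0.54, adjusted p = 0.00145), the tumor that held the highest Stat6 of its group.

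These 2 calls among 6 stood beside 58.6% of all genes called. Of the STAT3 targets, 0 of 14 tested were higher in B16-BL6 and 9 were lower, with a median of -1.81, although Stat3 itself was higher. Among receptors and kinases, 10 of 30 were higher and 15 lower. Prlr, the prolactin receptor that signals through STAT5, had a mean of 4.06 CPM in B16-BL6 and 372 CPM in Myc-CaP tumors (log2 fold change -6.52, adjusted p = 3.55e-10). Il12rb1, an IL-12 receptor chain, had 1.48 against 22.0 CPM, Il10rb, an IL-10 receptor chain, 114 against 23.1 CPM, and Ccnd2 983 against 13.2 CPM. The lines grew in different mouse strains. Their libraries also differ in depth, with 28570255 to 35693203 counts in the B16-BL6 controls and 10668740 to 12552908 in the Myc-CaP controls. Line, host and set of libraries therefore cannot be told apart.

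In B16-BL6 tumors, sgUba1 was compared with control sgRNA. None of the 6 members passed, beside 0.724% of all genes called, and 2 had an unadjusted p under 0.05, a share not counted over all genes. Stat5a had 47.6, 47.7 and 43.5 CPM in the controls and 39.7, 41.1, 39.9 and 41.3 CPM in sgUba1 tumors. The groups did not overlap, yet the difference was small (log2 fold change -0.19 ± 0.06, edgeR adjusted p = 0.196), and the summed Stat5 genes gave -0.05 ± 0.06. Stat4 had 0.0993, 0.347 and 0.591 CPM in the controls and 0.839, 0.436, 0.761 and 1.17 CPM in sgUba1 tumors, which overlap (1.22 ± 0.50, adjusted p = 0.276), on between 3 and 36 counts a library. Stat2 (0.31 ± 0.24), Stat3 (-0.12 ± 0.15), Stat5b (0.04 ± 0.07) and Stat6 (-0.06 ± 0.07) were not called either.

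No gene of the receptor, brake or target lists was called in that comparison. The medians were 0.09 for 30 receptors and kinases, -0.03 for 17 brakes, 0.38 for 15 STAT2 targets, 0.30 for 14 STAT3 targets, 0.16 for 4 STAT4 targets, 0.08 for 10 STAT5 targets and 0.93 for 7 STAT6 targets, beside 0.01 for all genes. The STAT6 target list holds Mrc1, which is also a myeloid marker. The 15 myeloid markers summed to between 148 and 239 CPM in the controls and between 249 and 296 CPM in sgUba1 tumors, without overlap, and the 17 T and NK markers to between 10.1 and 12.0 against 12.5 and 15.3 CPM. Their part in these values was not tested.

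In the Myc-CaP tumors labelled sgUba1, Stat5a and Stat5b were spread along the same division of tumors as Uba1. Stat5a had 50.5, 64.0 and 43.8 CPM in tumors 1 to 3 and 111, 123, 116 and 106 CPM in tumors 4 to 7, against 62.5, 23.7 and 52.6 CPM in the controls. Tumors 4 to 7 were above every control, while tumors 1 to 3 overlapped the controls and reached just past the highest of them. Stat5b had 77.4, 96.7 and 80.2 CPM in tumors 1 to 3 and 164, 160, 154 and 164 CPM in tumors 4 to 7, against 93.6, 41.8 and 83.8 CPM in the controls. The log2 fold change over all 7 tumors was 0.92 ± 0.40 for Stat5a (edgeR adjusted p = 0.194), 0.81 ± 0.33 for Stat5b (adjusted p = 0.174) and 0.85 ± 0.36 for the sum (adjusted p = 0.181). Without tumors 4 to 7 these were 0.18 for Stat5a (adjusted p = 0.815) and 0.21 for Stat5b (0.742), and without control tumor 2 as well they were -0.14 (0.709) and -0.08 (0.773).

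Stat6 ran the other way. It had 90.6, 162 and 113 CPM in the controls and between 72.4 and 89.6 CPM in the 7 tumors labelled sgUba1 (median 82.7), and the groups did not overlap. The difference missed the threshold (-0.59 ± 0.15, adjusted p = 0.062), was called with DESeq2 (adjusted p = 0.0108) and without control tumor 1 (-0.77, 0.0197). It was -0.34 without control tumor 2 (0.245), the control with the highest Stat6, and -0.58 without tumors 4 to 7 (0.22). Stat3 had 87.2, 67.9 and 67.9 CPM in the controls and between 78.5 and 128 CPM in the labelled sgUba1 tumors (median 98.0), which overlap (0.43 ± 0.16, adjusted p = 0.149). Tumors 1 to 3 held 83.5, 78.5 and 90.9 CPM of Stat3 and tumors 4 to 7 held 115, 128, 109 and 98.0 CPM, without overlap. Stat2 had 40.9, 43.9 and 57.8 CPM in the controls. It had 55.8, 48.3 and 67.0 CPM in tumors 1 to 3 and 41.8, 42.8, 39.3 and 45.4 CPM in tumors 4 to 7. Those sets of tumors did not overlap, so the Stat2 value over all 7 (0.03 ± 0.18) averages tumors that differ. Stat2 and Stat4 (0.72 ± 0.59) were not called either. So 0 of 6 members passed, beside 3.04% of all genes, and 4 had an unadjusted p under 0.05, a share not counted over all genes.

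**Figure D2:**
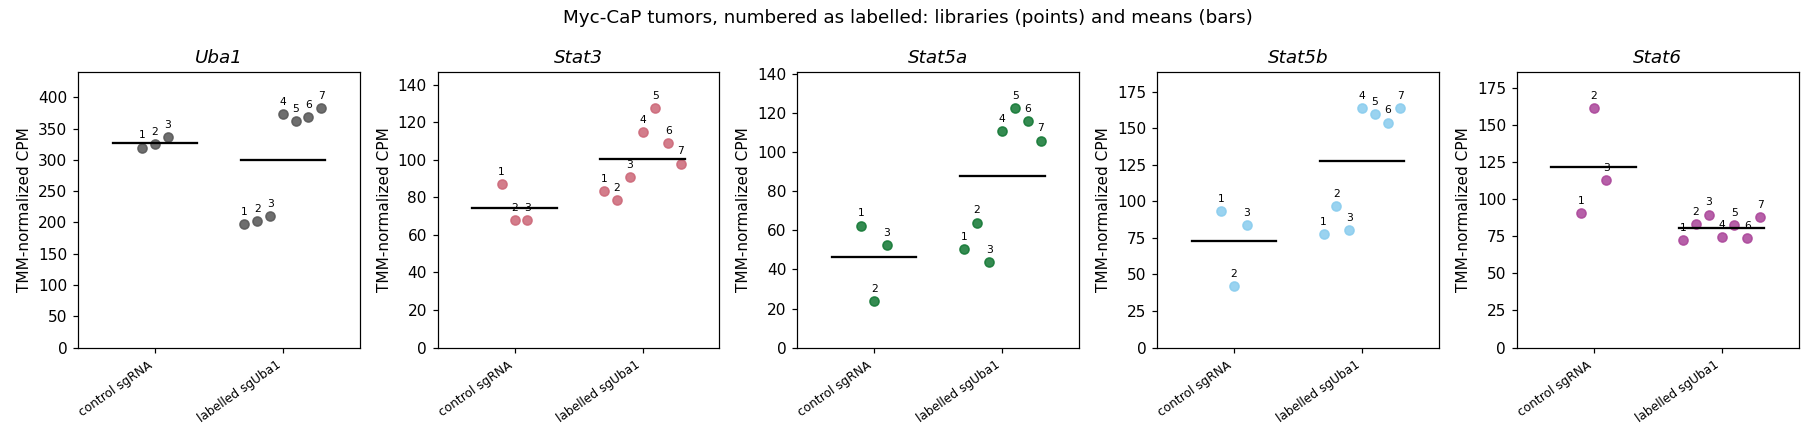
TMM-normalized CPM (y axis, from 0) of Uba1 and 4 STAT genes in Myc-CaP control sgRNA tumors and tumors labelled sgUba1, with a point for each tumor, its number as labelled, and a bar for the group mean. Tumors 4 to 7 hold between 106 and 123 CPM of Stat5a and between 361 and 383 CPM of Uba1, and control tumor 2 holds the lowest Stat5a and the highest Stat6.

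The pathway lists gave few calls in these tumors. Prlr fell from a mean of 373 to 155 CPM (log2 fold change -1.27 ± 0.29, adjusted p = 0.0456), 1 of 28 receptors and kinases tested. Saa3, an acute-phase protein among the STAT3 targets, rose from 5.71 to 11.4 CPM (0.999 ± 0.24, adjusted p = 0.0497), 1 of 14. Without tumors 4 to 7 only 1 gene was called in the whole table, against 492 with them. The Prlr and Saa3 calls therefore cannot both hold without those tumors. None of the 17 brakes, 15 STAT2 targets, 4 STAT4 targets, 10 STAT5 targets or 8 STAT6 targets tested passed. The medians were 0.08 for receptors and kinases, 0.11 for brakes, 0.78 for STAT2, -0.07 for STAT3, 0.21 for STAT4, -0.25 for STAT5 and 0.41 for STAT6 targets, beside 0.00 for all genes. Adgre1, C1qa and Cd68, 3 of 14 myeloid markers tested, rose, and the myeloid sum ran from 288 to 577 CPM in the controls and from 497 to 833 CPM in the labelled sgUba1 tumors. The endothelial sum was 216, 225, 246 and 273 CPM in tumors 4 to 7 and at most 167 CPM in the other libraries. This sum thus moved with Stat5a and Stat5b. Over all 7 tumors, 0 of the 6 endothelial genes were called and their median log2 fold change was -0.11, so the sum does not speak for each gene. The T and NK sum was between 11.3 and 14.8 CPM in the controls and between 15.3 and 33.6 CPM in the labelled sgUba1 tumors. The dendritic sum (between 8.16 and 9.16 against 10.6 and 17.5 CPM) and the prostate epithelial sum (between 1653 and 2236 against 2342 and 3136 CPM) did not overlap either. The part of these cells was not tested.

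The effect of sgUba1 was also set side by side between the lines. The difference, B16-BL6 minus Myc-CaP, was -1.12 ± 0.47 for Stat5a (edgeR adjusted p = 0.217), -0.78 ± 0.39 for Stat5b (0.305), -0.57 ± 0.24 for Stat3 (0.226) and 0.52 ± 0.19 for Stat6 (0.169). It was 0.26 ± 0.32 for Stat2 and 0.48 ± 0.84 for Stat4. No member was called, beside 1.52% of all genes, and 3 had an unadjusted p under 0.05, a share not counted over all genes. Stat6 was called without Myc-CaP control tumor 1 (0.69, adjusted p = 0.0332) and was 0.25 without Myc-CaP control tumor 2 (0.455). Without the Myc-CaP tumors 4 to 7 the Stat5a value was -0.38. Ptpn6, a phosphatase among the brakes, was the 1 list gene called (-0.72 ± 0.17, adjusted p = 0.0462). The Myc-CaP side of that call holds tumors 4 to 7, which had more Uba1 than the controls. Ptpn6 was not tested without them, so the call cannot be ascribed to lowered Uba1.

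Overexpression of Uba1 was compared with empty vector in Myc-CaP tumors. Stat5b had 104, 97.9 and 94.0 CPM with empty vector and 64.0, 79.3, 76.4 and 90.8 CPM with OE, without overlap (-0.35 ± 0.12, edgeR adjusted p = 0.198). Stat2 had 33.1, 38.5 and 45.0 CPM with empty vector and 18.7, 29.2, 35.4 and 26.0 CPM with OE, which overlap (-0.51 ± 0.21, adjusted p = 0.251). Stat5a had 65.8, 60.3 and 58.7 CPM with empty vector and 15.4, 40.5, 50.5 and 62.6 CPM with OE, of which OE tumor 1 was the lowest (-0.54 ± 0.37, adjusted p = 0.464). Without that tumor the value was -0.27 (0.361). Stat3 gave -0.27 ± 0.20 and Stat6 0.14 ± 0.12. Stat4 was too low to test, with between 0.437 and 0.847 CPM with empty vector and between 0.163 and 0.321 CPM with OE. None of the 5 members tested passed, beside 0.0269% of all genes, and 2 had an unadjusted p under 0.05, a share not counted over all genes.

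No gene of the pathway lists passed with OE. The 15 STAT2 targets had a median of -0.98 and the 28 receptors and kinases one of -0.23, beside 0.00 for all genes. The 17 T and NK markers summed to between 20.6 and 25.7 CPM with empty vector and between 6.74 and 12.6 CPM with OE, without overlap. OE tumor 1 also had the lowest myeloid and endothelial sums of its group, 163 and 82.6 CPM, and the lowest prostate epithelial sum, 1288 CPM. Its skeletal muscle sum was 520 CPM and that of OE tumor 2 was 132 CPM, against at most 7.20 CPM with empty vector. Their part was not tested.

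In Myc-CaP tumors treated with TAK-243, Stat3 and Stat2 were higher than with vehicle without passing the test. Stat3 had between 56.9 and 73.8 CPM in the 6 vehicle tumors (median 67.7) and 80.3, 87.9, 73.5, 122 and 118 CPM with TAK-243. The lowest treated tumor lay just under the highest vehicle tumor (0.52 ± 0.13, edgeR adjusted p = 0.131), and DESeq2 called the difference (adjusted p = 0.0233). Stat2 had between 28.4 and 47.2 CPM with vehicle (median 33.6) and 46.9, 54.2, 42.7, 78.9 and 46.2 CPM with TAK-243, which overlap (0.57 ± 0.18, adjusted p = 0.184). Stat5a (0.20 ± 0.19), Stat5b (-0.11 ± 0.13) and Stat6 (0.00 ± 0.10) lay close to 0, and Stat4 was not tested. None of the 5 members tested passed, beside 0.145% of all genes, and 2 had an unadjusted p under 0.05, a share not counted over all genes.

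None of the pathway lists held a called gene in that comparison either. The medians were 0.84 for 15 STAT2 targets, 0.37 for 14 STAT3 targets and 0.67 for 9 STAT6 targets, beside 0.01 for all genes. S100a8, S100a9 and Itgam, 3 of 15 myeloid markers, rose. The myeloid sum was between 241 and 336 CPM with vehicle and between 295 and 570 CPM with TAK-243, which overlap. The prostate epithelial sum was between 1688 and 2439 CPM with vehicle and between 2646 and 3658 CPM with TAK-243, without overlap. TAK-243 tumor 1 had a keratinocyte sum of 79.0 CPM, against at most 0.322 CPM with vehicle. The part of these in the Stat2 and Stat3 values was not tested.

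**Figure D3:**
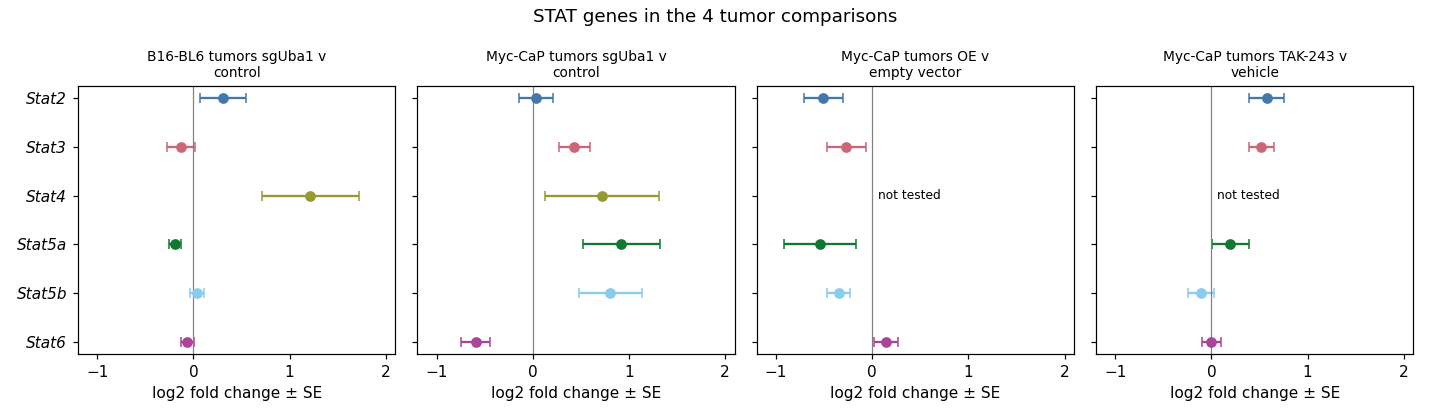
Log2 fold change (x axis) with its standard error for each STAT gene (y axis) in the 4 tumor comparisons, edgeR on rounded counts. None of the plotted values passed an adjusted p of 0.05, and Stat4 was not tested in the OE and TAK-243 comparisons.

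In cultured cells the host is absent, and TAK-243 moved 3 of the 5 members tested. Stat2 rose from 9.13 and 8.93 CPM in untreated cells to 13.7 in both TAK-243 libraries (log2 fold change 0.60 ± 0.12, edgeR adjusted p = 4.76e-05). Stat6 fell from 77.2 and 79.0 to 60.1 and 57.5 CPM (-0.41 ± 0.05, adjusted p = 1e-07). Stat3 went from 31.9 and 26.3 to 37.9 and 34.7 CPM, without overlap (0.32 ± 0.09, adjusted p = 0.00153). That call ended without untreated library 2 (0.18, adjusted p = 0.108) or TAK-243 library 1 (0.19, 0.131). Stat5a (-0.07 ± 0.20) and Stat5b (0.04 ± 0.08) did not pass. TAK-243 called 66.3% of all genes here, so 3 of 5 members is close to that share. Of the host cell markers, the fibroblast list summed to 22.7 and 24.5 CPM in untreated and 36.7 and 39.9 CPM in TAK-243 cells, with 5 or 6 of its 8 genes at 0. The keratinocyte sum was 0.0638 and 0.500 CPM against 6.63 and 7.46 CPM, and the skeletal muscle sum 1.47 and 1.81 against 6.87 and 6.58 CPM. The B cell sum was 0.0638 and 0.0624 against 0.859 and 1.93 CPM. The prostate epithelial sum was lower with TAK-243, 2786 and 2771 against 4220 and 4263 CPM. Most of its genes did not follow the sum: of 4 tested, 3 were called higher and 1 lower, with a median log2 fold change of 1.81. The part of these in the STAT values was not tested.

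With IFN-γ in both arms, the same members were called, beside 68.2% of all genes. Stat3 rose from 35.4 and 36.3 CPM to 62.1 and 59.2 CPM (0.76 ± 0.08, adjusted p = 7.65e-10). Stat2 rose from 15.1 and 14.7 to 23.8 and 22.2 CPM (0.62 ± 0.10, adjusted p = 2.49e-06). Stat6 fell from 94.9 and 93.8 to 62.7 and 67.1 CPM (-0.54 ± 0.05, adjusted p = 1.83e-10), a call that ended with limma on TPM (-0.23, 0.077). In each gene the pairs of libraries lay wholly apart, with 2 libraries an arm and the share over all genes not counted. Stat5a gave -0.44 ± 0.20 (adjusted p = 0.0526), on between 65 and 106 counts a library, and was called with no filter on low counts (-0.47, adjusted p = 0.0331) and without any 1 of 5 of the 8 libraries. Its value ran from -0.25 without untreated IFN-γ library 2 to -0.62 without untreated IFN-γ library 1. Stat5b gave -0.05 ± 0.08.

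IFN-γ, the type II interferon, raised Stat2 in this experiment with and without the drug. In untreated cells Stat2 rose by a log2 fold change of 0.72 ± 0.12 (adjusted p = 1.52e-05), Stat3 by 0.30 ± 0.09 (0.00828) and Stat6 by 0.27 ± 0.05 (1.18e-04), beside 29.0% of all genes called. The Stat3 call ended without untreated library 2 (0.17, adjusted p = 0.248) or untreated IFN-γ library 2 (0.28, 0.0684). On the TPM scale the Stat3 and Stat6 values fell to 0.05 and 0.04, where the median of all genes had moved to -0.14. In TAK-243 cells Stat2 rose by 0.75 ± 0.10 (adjusted p = 1.11e-05) and Stat3 by 0.74 ± 0.08 (1.9e-07), beside 10.5% of all genes, while Stat6 gave 0.14 ± 0.06 (0.111). With limma on TPM neither was called in TAK-243 cells (Stat2 0.59, adjusted p = 0.0669, and Stat3 0.69, 0.0653), and DESeq2 gave no adjusted p for Stat2 there. Stat5a and Stat5b were not called under either condition.

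The response of Stat3 to IFN-γ differed with the drug. The difference of the log2 fold changes was 0.44 ± 0.12 (edgeR interaction, adjusted p = 0.0399), the 1 call among 5 members, beside 2.38% of all genes. DESeq2 gave no adjusted p for it. It missed the threshold with limma on TPM and when any of 6 of the 8 libraries was left out, untreated library 1 lowering it the most (0.29, adjusted p = 0.296). The same difference was 0.02 ± 0.16 for Stat2, -0.13 ± 0.08 for Stat6, -0.38 ± 0.28 for Stat5a and -0.10 ± 0.11 for Stat5b.

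**Figure D4:**
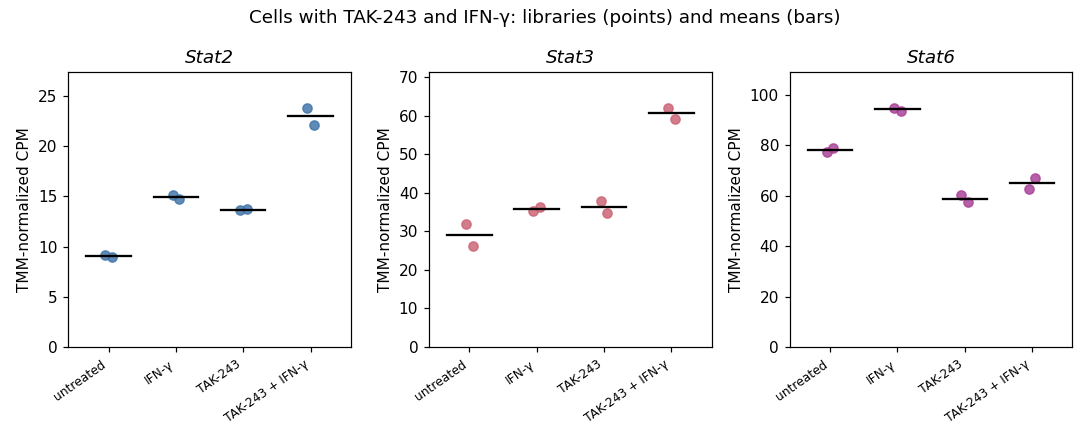
TMM-normalized CPM (y axis, from 0) of Stat2, Stat3 and Stat6 in cultured Myc-CaP cells without drug or with TAK-243, without or with IFN-γ, with 2 libraries (points) and the mean (bar) per group. Stat3 reaches 62.1 and 59.2 CPM with TAK-243 and IFN-γ together, against at most 37.9 CPM in the other groups, and Stat6 is lower in both TAK-243 groups.

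The pathway lists were followed under TAK-243, where 66.3% of all genes were called. Prlr fell from a mean of 236 to 41.9 CPM (log2 fold change -2.49 ± 0.05, adjusted p = 2.87e-27), and Jak1, the kinase shared by interferon and IL-6 family receptors, rose from 127 to 361 CPM (1.51 ± 0.03, adjusted p = 8.29e-26). Junb, an AP-1 factor among the STAT3 targets, rose from 64.7 to 235 CPM (1.87 ± 0.04), and Ccnd1, cyclin D1, among the STAT5 targets, fell from 551 to 251 CPM (-1.13 ± 0.03). In all, 6 of 19 receptors and kinases tested rose and 6 fell, 10 of 16 brakes rose and 4 fell, 2 of 8 STAT2 targets rose and 2 fell, 7 of 12 STAT3 targets rose and 2 fell, 4 of 9 STAT5 targets rose and 3 fell, and 2 of 4 STAT6 targets rose and 2 fell. With IFN-γ in both arms, 4 of 8 STAT2 targets rose and 2 fell, and 6 of 12 STAT3 targets rose and 2 fell.

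IFN-γ was followed in the same lists. Irf9, the partner of STAT2, rose from a mean of 5.94 to 12.7 CPM in untreated cells (1.09 ± 0.15, adjusted p = 1.28e-06) and from 8.97 to 20.9 CPM in TAK-243 cells (1.20 ± 0.13, adjusted p = 1.86e-07). Bst2, tetherin, rose from 11.7 to 21.3 CPM in untreated cells. Socs3, a brake that STAT3 itself induces, rose from 43.5 to 63.5 CPM in TAK-243 cells (0.54 ± 0.07, adjusted p = 5.29e-06). Junb and Furin, a protease, rose in both. Of the STAT3 targets, 6 of 12 tested rose in untreated and 4 of 12 in TAK-243 cells, with 0 falling. Of the STAT2 targets, 2 of 8 rose and 3 fell in untreated cells, and 2 rose and 0 fell in TAK-243 cells.

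In the sgUba1 cells Stat5a, Stat2 and Stat5b were higher than in control sgRNA cells. Stat5a rose from 2.21 and 2.09 CPM to 5.56 and 4.63 CPM (log2 fold change 1.24 ± 0.16, edgeR adjusted p = 2.13e-04), on between 60 and 64 counts a library in the controls and between 164 and 197 in sgUba1 cells. Stat2 rose from 8.44 and 10.1 to 12.1 and 12.2 CPM (0.39 ± 0.09, adjusted p = 0.00864), and Stat5b from 33.5 and 34.1 to 39.6 and 39.2 CPM (0.22 ± 0.06, adjusted p = 0.0138). The libraries of the arms did not overlap for these 3 genes, with 2 libraries an arm and the share over all genes not counted. The Stat2 and Stat5b calls ended without sgUba1 library 1 (adjusted p = 0.0631 and 0.145) or library 2 (0.056 and 0.069). Stat3 (-0.07 ± 0.07) and Stat6 (0.04 ± 0.06) did not pass. The 3 calls among 5 stood beside 29.7% of all genes.

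With IFN-γ in both arms, beside 39.4% of all genes called, Stat5a rose from 1.51 and 1.71 to 3.89 and 3.99 CPM (1.29 ± 0.17, adjusted p = 1.27e-04). The control libraries held between 46 and 62 counts of Stat5a, and limma on TPM did not call it (adjusted p = 0.111). Stat2 rose from 11.7 and 11.2 to 14.1 and 14.2 CPM (0.31 ± 0.09, adjusted p = 0.0164), and Stat5b from 32.9 and 33.7 to 36.1 and 38.5 CPM (0.16 ± 0.06, adjusted p = 0.0438). The Stat2 and Stat5b calls ended without control IFN-γ library 1 (adjusted p = 0.0629 and 0.206) or 2 (0.126 and 0.124). The Stat5b call also ended without sgUba1 library 1 (0.0683) or sgUba1 IFN-γ library 2 (0.118). The summed Stat5 genes rose by 0.30 ± 0.06 without IFN-γ (adjusted p = 0.00214) and by 0.29 ± 0.06 with it (0.0018). Because each arm is a line grown from single cells, the guide and the subline cannot be told apart.

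IFN-γ called no member in this experiment. Stat2 gave 0.30 ± 0.09 in control sgRNA cells (adjusted p = 0.0922), beside 3.88% of all genes called, and 0.22 ± 0.09 in sgUba1 cells (0.181), beside 2.85%. In control sgRNA cells Stat2 was called without control sgRNA library 2 (0.44, adjusted p = 0.0249). The unadjusted p was under 0.05 for Stat2 in control cells and for Stat2 and Stat5a in sgUba1 cells, a share not counted over all genes. The interaction of sgUba1 and IFN-γ called no member either, beside 4.64% of all genes, and ran from -0.08 ± 0.13 for Stat2 to 0.04 ± 0.24 for Stat5a, with no member at an unadjusted p under 0.05.

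**Figure D5:**
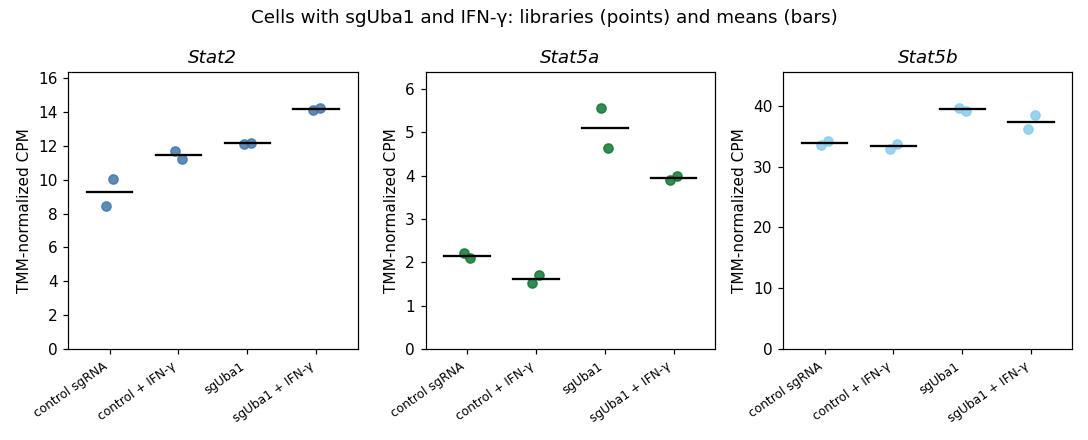
TMM-normalized CPM (y axis, from 0) of Stat2, Stat5a and Stat5b in cultured Myc-CaP cells with control sgRNA or sgUba1, without or with IFN-γ, with 2 libraries (points) and the mean (bar) per group. Stat5a lies between 1.51 and 2.21 CPM in the 4 control libraries and between 3.89 and 5.56 CPM in the 4 sgUba1 libraries.

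Around the STAT genes, sgUba1 cells showed changes both ways. Ghr, the growth hormone receptor that signals through STAT5, rose from a mean of 3.95 to 11.3 CPM (1.52 ± 0.12, adjusted p = 9.44e-06), and Arg1, arginase 1, a STAT6 target in macrophages, from 11.8 to 24.6 CPM (1.06 ± 0.09, adjusted p = 9.56e-06). The survival factor Bcl2l1 fell from 233 to 160 CPM (-0.54 ± 0.05) and the kinase Pim1 from 67.1 to 45.0 CPM (-0.58 ± 0.06), both listed as STAT5 targets. Beside 29.7% of all genes called, of 9 STAT5 targets tested 2 rose and 4 fell. Of 23 receptors and kinases, 8 rose and 1 fell, of 17 brakes 5 rose and 4 fell, of 10 STAT2 targets 5 rose and 0 fell, and of 12 STAT3 targets 2 rose and 6 fell. With IFN-γ in both arms, where 39.4% of all genes were called, 8 of 10 STAT2 targets rose and 0 fell, with a median of 1.03, and 0 of 12 STAT3 targets rose and 6 fell, while Socs5, a brake, fell from 94.4 to 66.6 CPM.

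IFN-γ raised Irf9 from 6.13 to 8.31 CPM in control sgRNA cells (0.44 ± 0.10, adjusted p = 0.0414) and from 5.66 to 11.0 CPM in sgUba1 cells (0.96 ± 0.09, adjusted p = 4.15e-04). Bst2 rose from 12.0 to 24.6 CPM in sgUba1 cells (1.04 ± 0.08, adjusted p = 3.19e-05), and its interaction was called (0.74 ± 0.11, adjusted p = 0.0144), as were those of Furin (-0.49 ± 0.08), Ptpn1 (-0.36 ± 0.06) and Socs5 (-0.31 ± 0.06), the last 2 being brakes. In the control cells Socs5 and Ptpn1 rose slightly with IFN-γ (0.23 ± 0.04 and 0.19 ± 0.05), and Il2ra, an IL-2 receptor chain, fell from 3.08 to 1.64 CPM.

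How the members varied together was described over the 35 tumors, after the mean of each group was taken from log2 CPM, among 13320 genes. Taking out group means removed mean differences between groups, as in line, host and depth, but not the spread inside a group. The Myc-CaP tumors labelled sgUba1 were divided by their Uba1, and Stat5a, Stat5b, Stat3 and Stat2 followed that division without overlap. These Pearson correlations, and those with the marker sums below, were not computed with the higher-Uba1 tumors of that group left out. They are descriptions, and the part of that division in them was not tested. Stat5a and Stat5b ran together (r = 0.832), Stat5a and Stat3 less so (0.532), and Stat5a and Stat6 ran opposite (-0.616). The genes most like Stat5a included Abo (0.966) and Abca2 (0.961), and those most like Stat5b were Llgl2 (0.932), Tmod1 (0.925) and Scarb1 (0.921). For Stat2 they were Casp12 (0.889), Samd9l (0.782) and Tmsb4x (0.778), for Stat3 Rhob (0.841), Slc8b1 (0.819) and Plekhg1 (0.818), for Stat6 Tcirg1 (0.884), Polk (0.854) and Hivep1 (0.854), and for the scarce Stat4 Gm45833 (0.669), Olfr183 (0.647) and Plbd1 (0.629).

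Against the marker sums, Stat2 ran with the fibroblast (0.663), myeloid (0.604) and dendritic (0.548) lists. Stat3 ran with the endothelial (0.707) and T and NK lists (0.542). Stat5a ran with the endothelial (0.651), T and NK (0.614) and prostate epithelial lists (0.603) and against the melanocyte list (-0.632). Stat5b ran with the endothelial list (0.584) and against the melanocyte list (-0.649). Stat4 had its highest value with dendritic markers (0.406), and T and NK markers gave 0.211. Stat6 was above 0.1 in size against the T and NK (-0.337), prostate epithelial (-0.417), keratinocyte (-0.159) and melanocyte lists (0.643), the last of which is near its floor in Myc-CaP tumors.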

How the data were processed

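RNA was sequenced from 35 tumors and 16 cultures. The authors deposited estimated counts per gene, which the submitters' processing notes tie to kallisto and mm10 (versions not given in the sources used here), and TPM values per gene. The labels describe poly-A selection and the study's methods ribosomal RNA removal. Counts were rounded, genes with low counts were removed by filterByExpr, and edgeR 4.0.16 quasi-likelihood tests (R 4.3.3) with TMM scaling and Benjamini-Hochberg adjustment over all genes tested were run at a threshold of 0.05. Each tumor comparison used its own groups, each culture experiment its 4 groups. CPM came from the same fits, so a library's CPM differs slightly between comparisons. Errors on log2 fold changes are standard errors. DESeq2 1.42.0, RLE size factors, no count filter, limma 3.58.1 on log2(TPM + 1), a replicate block, Stat5a and Stat5b summed, only the groups compared, and each library left out were alternatives. Leaving out the Myc-CaP sgUba1 tumors 4 to 7, alone or with control tumor 2, was chosen after seeing the data. The scripts were tested on simulated data. Named list genes are the up to 4 called with the smallest adjusted p per comparison, markers aside, and for each member the 3 genes most correlated with it over the tumors, of which 1 is not reported here. Members and lists were chosen with earlier results of these data known. No label ties replicates to separate animals or cultures, so p-values measure the spread between these libraries, which may be technical. Of 75 replicate pairs, 0 were identical and none differed by less than sampling noise (chi-square per degree of freedom 1.81 to 91.8).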

Additional observations from a re-analysis of the deposited data

Results flagged for a closer look

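The effect of IFN-γ on Stat3 differed between cells with and without TAK-243, by 0.436 on the log2 scale (edgeR interaction, adjusted p = 0.0399). Stat3 rose by 0.30 ± 0.09 without the drug and by 0.74 ± 0.08 with it, over 2 libraries in each group. With 1 library left out the difference ran from 0.29 to 0.57, and most of those fits did not call it. Limma on TPM did not call it either, and DESeq2 gave no adjusted p for it. In the 30 combinations of a member and a tumor group of at least 4 libraries that were examined, 0 held a library far from the others by Dixon's criterion, where chance gives about 1 in 20.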

How the results depend on the processing

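Over all alternatives, no STAT gene changed direction while called. The number of STAT genes called was 0 by edgeR and 1 by DESeq2 in the Myc-CaP tumors labelled sgUba1 (Stat6) and in the TAK-243 tumors (Stat3). DESeq2 gave 1 for IFN-γ in TAK-243 cells (edgeR 2) and 0 for the TAK-243 and IFN-γ interaction (edgeR 1). In both cases DESeq2 gave no adjusted p for the gene not counted (Stat2 and Stat3), so these are not lost calls. With limma on log2(TPM + 1) the count was 1 for sgUba1 cells (edgeR 3), 0 with IFN-γ (3), 1 for IFN-γ in untreated cells (3), 0 for IFN-γ in TAK-243 cells (2) and 0 for the interaction (1). The cause was not tested. Leaving out 1 library gave counts from 0 to 1 for the Myc-CaP tumors labelled sgUba1, for IFN-γ in control sgRNA cells, for the interaction of TAK-243 and IFN-γ and for the sgUba1 effect between lines. It gave 1 to 3 for sgUba1 cells without or with IFN-γ and for the control tumors of the lines. Where an arm kept 1 library, that library was assumed to vary like the other groups.

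Same-numbered libraries did not deviate together throughout (r from -0.179 to 0.315 over all comparisons), so the numbers were not taken as pairs. With the replicate block the number of STAT genes called in each comparison (from 0 to 3) was the same as without it. The count of all genes called went from 492 to 1018 in the Myc-CaP tumors labelled sgUba1, from 25 to 8 in the TAK-243 tumors, from 4 to 0 with OE and from 443 to 768 for IFN-γ in sgUba1 cells.

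Counts of all genes called by edgeR and DESeq2 were 127 and 532 for B16-BL6 sgUba1, 492 and 1862 for Myc-CaP labelled sgUba1, 4 and 723 for OE, 25 and 558 for TAK-243 tumors, 266 and 1197 for the effect between lines, 443 and 759 for IFN-γ in sgUba1 cells, 603 and 395 in control sgRNA cells, 4216 and 2651 in untreated cells, 1534 and 867 in TAK-243 cells, and 347 and 219 for the interaction with TAK-243. With no filter they were 204, 33 and 45 for B16-BL6 sgUba1, OE and TAK-243 tumors, 115 between lines, 1460 and 1415 for IFN-γ in control sgRNA and sgUba1 cells, and 1487 for their interaction (720 by the filtered fit). With limma on TPM they were 254 for Myc-CaP labelled sgUba1, 1 for OE, 2618 and 4037 for sgUba1 cells without and with IFN-γ (4618 and 6119 by edgeR), 18 and 34 for IFN-γ in control sgRNA and sgUba1 cells, 12 for their interaction, 71 for IFN-γ in TAK-243 cells and 1 for the interaction with TAK-243. RLE size factors gave 292 for IFN-γ in control sgRNA cells and 414 for the interaction with sgUba1, and fitting only the groups compared gave 30 and 2087 for IFN-γ in control sgRNA and sgUba1 cells. Without Myc-CaP sgUba1 tumors 4 to 7, 1 gene was called in those tumors, and without control tumor 2 as well 184, with 486 between lines. Few reads limit Stat4 everywhere and Stat5a in culture.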
